A study of Mus musculus with 6 samples.

Results

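Intronic peaks were defined as H3K27me3 peaks on chromosomes 1 to 19 of the mouse assembly mm9 that overlapped the body of a protein-coding gene of GENCODE M1, touched no coding or untranslated exon of such genes and lay more than 2 kb from every start of a protein-coding transcript. They numbered 1647 of the 10618 autosomal peaks, and the 6 lists held 11214 peaks in all. H3K27me3, trimethylated lysine 27 of histone H3, was profiled by chromatin immunoprecipitation and sequencing in mouse primary mesangial cells, the contractile support cells of the kidney glomerulus. The labels call 3 samples Control, with no further word on their handling, and the other 3 received transforming growth factor β1 (TGF-β1), which drives matrix production and fibrosis, for 72 h at 10 ng/ml. The cells of both groups were at passages 3 to 6, and their medium had 25.5 mM glucose and 20% foetal bovine serum. Each list held the broad peaks of a single library, called without an input library, so a missing peak means that no peak passed the caller's threshold and not that the mark was absent. The titles and the antibody name H3K27me3, although the protocol given for extraction is one for pulling down methylated DNA and the headers of the peak lists call the libraries gDNA. The lists held no expression values, and the identity of the cells could not be checked from them.

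H3K27me3 is placed by the polycomb repressive complex 2 and is known for covering the CpG-rich promoters of silent developmental genes. Away from promoters, introns hold little CpG-rich sequence and many repeats, and reads from repeats are harder to place than reads from single-copy sequence. The positions that follow are therefore described by CpG content and by how often their sequence recurs in the assembly.

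The regions below show the sequence types that recur in the results. Each line gives the 30 bases at the centre of a region on the plus strand of mm9, with CpG dinucleotides in capitals.
Unc45b, chr11:82744956-82744985, called in 3 Control and 0 TGF-β1 samples: gctcCGgaccccCGctCGCGtctgaccccc
Gm12830, chr4:114516207-114516236, called in 3 Control and 0 TGF-β1 samples: cccagCGggtccctggagggtcccCGagca
Prdm1, chr10:44247893-44247922, called in 3 Control and 0 TGF-β1 samples: attCGaCGttttctttgaacagactgaagg
Adamts12, chr15:11252420-11252449, called in 0 Control and 3 TGF-β1 samples: aactaggaagaaggaaagtaaggggaaaga
Tcte2, chr17:13744752-13744781, called in all 6 samples: tgtctgtgctgtgctgtgctgtgctgtgct
The 3 Control-only examples were chosen to show CpG-containing centres, and the Control-only regions in Cpa6 and Lin28b, not shown, had none. Among TGF-β1-only regions not shown, that in 0610012H03Rik had 1 CpG at its centre, and those in Csmd2 and Sfi1 had none. The Tcte2 line shows a short unit repeated head to tail.

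The first comparison asked how many intronic peaks each group had. The Control samples had 352, 345 and 275 intronic peaks, against 299, 146 and 230 in the TGF-β1 samples. The groups overlapped, because TGF-β1 replicate 1 held more intronic peaks than Control replicate 3. The means were 324 ± 42.6 (SD, n = 3) and 225 ± 76.6 (SD, n = 3), and the log2 ratio was -0.58 (pooled SD 0.40, 2-sided exact permutation p = 0.2). Without TGF-β1 replicate 2, the sample with the fewest peaks, the log2 ratio was -0.30. That library had 22307716 tags after duplicate removal, the most of the 6, and 11% duplicates, the lowest share. The 6 libraries held 19721434 to 22307716 such tags, and the part of depth and duplicates in these counts was not tested. The smallest p that 3 samples against 3 allow is 0.1, so none of the exact tests on sample values below could pass 0.05. Adjusted over 14 measures compared in this way, an exact p of 0.1 became 0.23.

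Log2 ratios at the other positions were further from 0 than in introns. Promoter peaks, within 2 kb of a start, had a mean of 853 in Control and 263 in TGF-β1 samples, a log2 ratio of -1.76 with no overlap of groups (exact p = 0.1). Peaks over coding or untranslated exons had a log2 ratio of -1.24 and intergenic peaks of -0.73 (exact p = 0.1 for each). The intronic share of autosomal peaks was 13.7, 13.4 and 14.5% in the Control samples and 19.8, 18.3 and 18.3% in the TGF-β1 samples. Every TGF-β1 sample lay above every Control sample, with means of 13.9 ± 0.61% and 18.8 ± 0.84% (SD, n = 3 each, exact p = 0.1). The log2 ratio of intronic to promoter peaks within a sample was higher by 1.18 in TGF-β1 samples, with a pooled SD of 0.098 and no overlap (exact p = 0.1). Against exonic peaks the difference was 0.66 with a pooled SD of 0.17, again with no overlap (exact p = 0.1). Against intergenic peaks it was 0.15 with a pooled SD of 0.086, and the groups overlapped (exact p = 0.2). Among peaks with a −log10 q of at least 5 the share differed by 1.75 percentage points and the ratio to exonic peaks by 0.12, both with overlapping groups (exact p = 0.5 and 0.7).

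Intronic sequence made up 34.5% of the autosomes, or 826 Mb. The Control samples held 0.43, 0.42 and 0.33 intronic peaks per Mb of it, and the TGF-β1 samples held 0.36, 0.18 and 0.28. Promoter sequence held 7.96 ± 1.46 peaks per Mb in Control and 2.45 ± 0.89 in TGF-β1 samples (SD, n = 3 each). Introns were thus the most sparsely called of the 4 kinds of position in both groups, with intergenic sequence next at 0.76 ± 0.12 and 0.47 ± 0.13 per Mb.

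Peaks inside gene bodies and off exons were then ordered by distance to the nearest start of a protein-coding transcript. Within 1 kb of a start, the Control samples held 162, 156 and 119 such peaks and the TGF-β1 samples 62, 19 and 50, a log2 ratio of -1.89. From 1 to 2 kb the counts were 63, 50 and 42 against 16, 15 and 20, a log2 ratio of -1.59. Both of these bins lie outside the intronic definition, and in both the groups did not overlap (exact p = 0.1). From 2 to 3 kb, the nearest intronic bin, the counts were 19, 17 and 8 against 13, 7 and 11, a log2 ratio of -0.46 with overlapping groups (exact p = 0.4). In the 5 bins beyond 3 kb the log2 ratio lay between -0.96 (3 to 5 kb) and -0.52 (over 50 kb). The groups did not overlap at 5 to 10 kb and at 20 to 50 kb (exact p = 0.1 each), and they overlapped in the other bins. The median CpG ratio, the number of CpG dinucleotides over that expected from the C and G content, was 0.48 within 1 kb of a start, 0.27 at 1 to 2 kb and 0.19 at 2 to 3 kb. The intronic peak closest to the 2 kb limit lay 2003 bp from a start, and the closest peak left out lay 1996 bp from one.

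**Figure D1:**
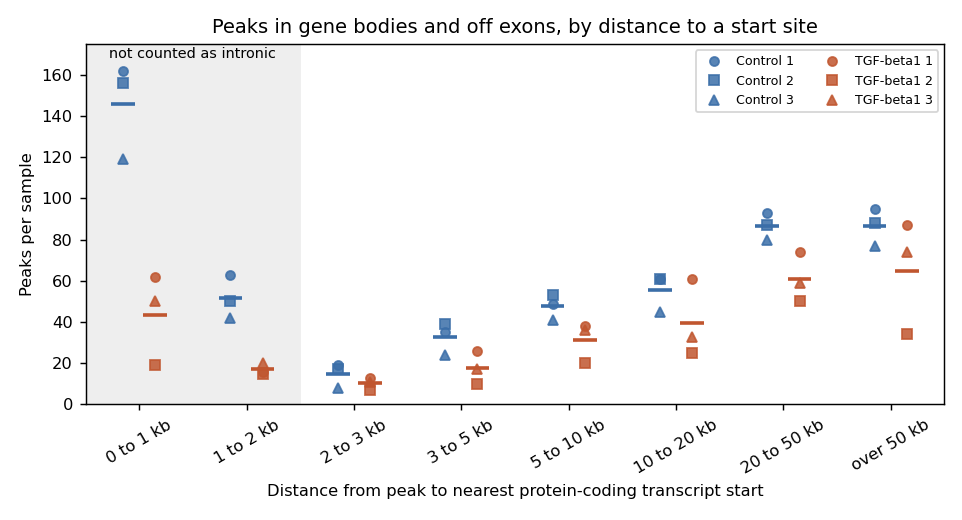
Number of peaks per sample (vertical axis) inside gene bodies and off exons, by distance to the nearest protein-coding transcript start (horizontal axis). Points are samples, short lines are group means of 3 samples, and the grey area marks the bins within 2 kb that are not intronic peaks. The Control and TGF-β1 points are furthest apart within 2 kb of a start (means of 146 and 43.7 in the 0 to 1 kb bin) and lie closer or overlap beyond it.

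The median distance to a start was 21.7, 20.4 and 27 kb in the Control samples and 23.2, 24.9 and 26.2 kb in the TGF-β1 samples, with overlapping groups (exact p = 0.5). Over all samples 455 intronic peaks, or 27.6%, lay more than 50 kb from every start. In the longest coding transcript of each gene, 32.7% of the intronic peaks that fell in an intron fell in the first, and the first intron held 24.9% of such intronic sequence. The share of peaks in the first intron was 35.1, 33.0 and 29.3% in Control and 33.6, 37.1 and 29% in TGF-β1 samples, with overlapping groups (exact p = 0.8). Of the intronic peaks 59, or 3.58%, overlapped an exon of another annotated transcript class. There were 7 peaks, in Control samples alone, that lay within 2 kb of a gene start that belongs to no coding transcript, among them those of the Prdm1 region shown above, and 4 of the 7 were on such exons too.

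The peaks were narrow and low. Their width ranged from 161 to 2550 bp with a median of 331 bp, and the fold enrichment over the local background ranged from 1.0 to 15.9 with a median of 1.82. The sample medians of width were 411, 374 and 284 bp in Control and 289, 357 and 306 bp in TGF-β1 samples, with overlapping groups (log2 ratio -0.16, exact p = 0.5). The base pairs covered came to 167, 154 and 104 kb in Control and 113, 64.5 and 88.1 kb in TGF-β1 samples. The log2 ratio of covered length was -0.69 with a pooled SD of 0.39 and overlapping groups (exact p = 0.2). Median fold enrichment was 1.74, 1.72 and 1.92 in Control and 1.85, 1.85 and 1.93 in TGF-β1 samples, again overlapping (log2 ratio 0.066, exact p = 0.3). Every listed peak had passed the caller, whose weak limit was a q of 0.1. The q listed for a broad peak is therefore not the value that decided its call. A −log10 q below 1 was listed for 1198 intronic peaks, or 72.7%, and only 74 reached 5. At that stricter threshold the samples held 13, 15 and 17 intronic peaks (Control) and 14, 7 and 8 (TGF-β1).

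The sequence under the peaks was richer in G and C than introns as a whole. Intronic sequence had a GC content of 42.5%, while the sample medians of the intronic peaks were 48.5, 50 and 49.1% in Control and 49.7, 48.8 and 48.7% in TGF-β1 samples. The difference between groups, -0.14 percentage points, was smaller than the pooled SD of 0.65 (exact p = 0.7). The median CpG ratio was 0.192, 0.193 and 0.168 in Control and 0.122, 0.151 and 0.139 in TGF-β1 samples. Intronic sequence had a ratio of 0.188, a single value over its full length and not a median of short stretches. Whether the peaks held fewer CpGs than intronic stretches of their size was not tested. All TGF-β1 medians lay below all Control medians (difference -0.047, pooled SD 0.014, exact p = 0.1). This order was not particular to introns, since it held at the other positions too. The Control and TGF-β1 means were 0.169 and 0.136 in intergenic, 0.472 and 0.355 in exonic and 0.605 and 0.552 in promoter peaks. Among all samples 309 intronic peaks, or 18.8%, contained no CpG at all.

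The peaks were divided into 4 kinds of sequence, a division made after the data were seen. Multi-copy peaks had more than 50% of their 31-base words present more than 1 time in the assembly. Of the remaining peaks, tandem peaks had more than 20% of their bases in perfect repeats of units of 1 to 6 bases, CpG-rich peaks had a GC content of at least 50% and a CpG ratio of at least 0.6, and single-copy peaks were all others. Single-copy peaks were the most frequent, 1144 of 1647 (69.5%), followed by 356 multi-copy (21.6%), 93 tandem (5.65%) and 54 CpG-rich peaks (3.28%).

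Of the 4 kinds, CpG-rich intronic peaks had the log2 ratio furthest from 0. The Control samples held 12, 21 and 11 of them and the TGF-β1 samples 5, 2 and 3, so the groups did not overlap. The log2 ratio was -2.18 with a pooled SD of 0.59 (exact p = 0.1, adjusted over the 4 kinds p = 0.4). The 54 CpG-rich peaks lay in 34 genes, at a median of 21.9 kb from a start, and 21 lay within 10 kb of one. Another limit is that 5 of the 54, all in Control samples, lay within 2 kb of a gene start that belongs to no coding transcript. The Cdk8 and Fgfr2 peaks were CpG-rich in all 6 samples, so among the TGF-β1 peaks 6 of 10 came from these genes. Both regions overlapped an exon of another annotated transcript class. Cdk8 encodes a kinase of the Mediator complex and Fgfr2 a fibroblast growth factor receptor. CpG-rich peaks in at least 2 Control and no TGF-β1 samples lay in Gm5607, Cdh23, Col6a6, Gm12830, Nos2, Prdm1 and Spata3.

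Multi-copy peaks numbered 59, 54 and 67 in the Control and 73, 45 and 58 in the TGF-β1 samples. Their log2 ratio of -0.055 was well inside the pooled SD of 0.27, with overlapping groups (exact p = 0.9). Their share was 16.8, 15.7 and 24.4% in Control and 24.4, 30.8 and 25.2% in TGF-β1 samples, where the highest Control value was 24.36 and the lowest TGF-β1 value 24.41 (exact p = 0.1). At other positions the mean multi-copy share in Control and TGF-β1 samples was 19.5 and 25.9% (intergenic), 3.66 and 9.25% (promoter) and 4.93 and 5.36% (exonic). Single-copy peaks numbered 266, 253 and 176 against 201, 92 and 156, with a log2 ratio of -0.68 (pooled SD 0.47) and overlapping groups (exact p = 0.2), and of -0.36 without TGF-β1 replicate 2. Tandem peaks numbered 15, 17 and 21 against 20, 7 and 13 and overlapped as well (log2 ratio -0.52, exact p = 0.4), with a log2 ratio of -0.12 without TGF-β1 replicate 2.

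**Figure D2:**
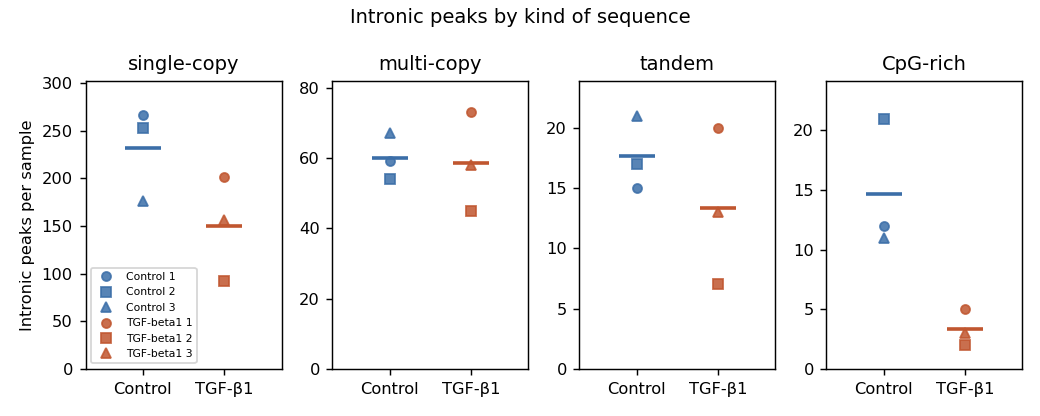
Intronic peaks per sample (vertical axes, each starting at 0) for 4 kinds of sequence, in Control and TGF-β1 samples. Points are samples and short lines are means of 3 samples. The groups are separate for CpG-rich peaks (11 to 21 against 2 to 5) and overlap for the other kinds.

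Overlapping peaks of the 6 samples were joined into 6711 autosomal regions, of which 1093 consisted of intronic peaks alone. Most were called in a single sample, 857 regions or 78.4%, of which 521 came from a Control and 336 from a TGF-β1 sample. Another 122 were called in 2 samples, 42 in 3, 32 in 4 or 5, and 40 in all 6. Among all autosomal regions 2.85% were called in all 6 samples, against 3.66% of the intronic regions. Intronic regions called in 2 or more Control and no TGF-β1 samples numbered 58 (5.31%, beside 9.22% of all autosomal regions), and the reverse pattern had 24 (2.20%, beside 1.03%). The overlap in base pairs between 2 samples (Jaccard index, shared over joined length) averaged 0.144 within Control, 0.153 within TGF-β1 and 0.127 between groups. Single pairs ranged from 0.141 to 0.146 within Control, 0.140 to 0.166 within TGF-β1 and 0.111 to 0.143 between groups, so these ranges overlapped.

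Recurrence went with repeated sequence. Of the 857 regions called in 1 sample 62 (7.23%) were multi-copy and 6 (0.70%) tandem. Of the 40 regions called in all 6 samples 22 (55.0%) were multi-copy and 4 (10.0%) tandem, and each of the 40 contained at least 1 repeated word. The median share of repeated words was 0% in regions of 1 sample, 10.1% in those of 2, 20.9% in those of 3, 24.0% in those of 4 or 5 and 57.5% in those of all 6. Median GC content varied less over the same order, from 48.2 to 51.2%.

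**Figure D3:**
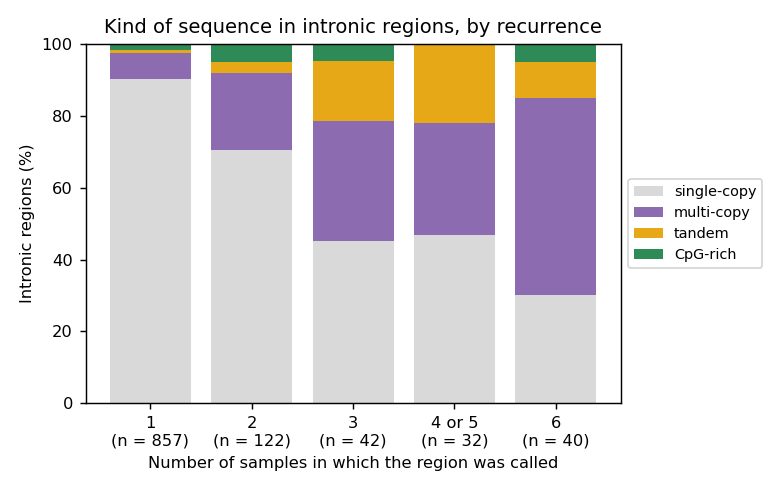
Share of intronic regions (vertical axis, percent) by kind of sequence, for regions called in 1, 2, 3, 4 or 5, and 6 samples (horizontal axis, with the number of regions). The single-copy share is 90.3% for regions of 1 sample, and the multi-copy share is 55.0% for regions of all 6.

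Regions called in all 6 samples included the widest intronic peaks. Tcte2, on chromosome 17, held a region of 2551 bp (chr17:13743491-13746041) that was 2500 to 2550 bp wide in every sample and had 1 CpG in all. Smo, the transducer of hedgehog signalling, held a region of the same kind in its first intron (chr6:29697797-29699035), 1131 to 1239 bp wide. Mepe, a bone matrix glycoprotein, held another of 583 to 1150 bp (chr5:104760019-104761305). All 3 held interrupted repeats of the unit ACAGC, read on either strand, which covered 769, 363 and 695 bases in perfect runs and left almost no CpG. The Gm20388 region (chr8:126061320-126063708) was different, with a GC content of 63.2%, 121 CpGs and 97.5% repeated words, and its width varied from 192 to 2212 bp. The Myo3a region (chr2:22444236-22445714) was AT-rich at 38.3% GC. Its peaks were 1222, 1298 and 1304 bp wide in Control and 230, 578 and 612 bp wide in TGF-β1 samples, a difference that was not tested. In the Tcte2, Smo, Mepe and Gm20388 regions the widths of the groups overlapped. Jarid2, a subunit of polycomb repressive complex 2, also held an intronic region called in all 6 samples (chr13:44964831-44965498), with 47 CpGs and widths of 598 to 664 bp.

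Fold enrichment was compared with limma, as log2 values, over all 240 regions called in every sample, at any position and on any chromosome. The value used was the highest listed for the region in a sample, and peak widths within a region could differ between samples. None of the 40 intronic regions passed an adjusted p of 0.05, as none of the 240 did (0%). At an unadjusted p under 0.05 there were 4 of 40, beside 24 of 240 (10%) overall. In 29 of the 40 the fold enrichment was higher in TGF-β1 samples, with a median log2 difference of 0.095, and in 154 of the 240, with a median of 0.070. With pileup scaled to library depth in place of fold enrichment, 21 of the 40 and 98 of the 240 were higher in TGF-β1 samples, with medians of 0.033 and -0.083, and the 2 regions of 240 that passed were not intronic. The region with the smallest p lay in Copz1, which encodes a subunit of the coatomer (chr15:103106424-103106729). Its fold enrichment was 1.40, 1.52 and 1.52 in Control and 2.79, 5.73 and 3.88 in TGF-β1 samples, so that the groups were separate (log2 difference 1.42 ± 0.26 SE, adjusted p = 0.32 with limma). Next came Tcte2, at 1.76, 1.80 and 1.92 against 2.31, 2.59 and 2.81 (log2 difference 0.49 ± 0.12 SE, adjusted p = 0.44 with limma). Both regions were multi-copy.

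Regions called in all 3 samples of 1 group and in none of the other were few. There were 10 such Control regions among the 1093 intronic regions (0.91%), beside 2.31% of all autosomal regions, and 4 such TGF-β1 regions (0.37%), beside 0.0894% of all. The 4 were among 6 such regions on the autosomes. The widest Control-only region lay in Unc45b, a chaperone of muscle myosin (chr11:82744358-82745583, intron 13 of 19). Its peaks were 972, 744 and 765 bp wide with a fold enrichment of 2.17, 1.72 and 1.73, and it had a GC content of 76.4%, 188 CpGs and a CpG ratio of 1.29, with 51.7% repeated words. The Prdm1 region (chr10:44247352-44248463), in the gene of the repressor Blimp-1, had widths of 899, 951 and 262 bp and 42 CpGs. The Gm12830 region (chr4:114515756-114516687) had widths of 609, 655 and 325 bp and 55 CpGs. The Lin28b region (chr10:45193009-45193788), in the gene of an RNA-binding inhibitor of let-7 maturation, had widths of 730, 685 and 172 bp, a fold enrichment of 1.51, 5.87 and 5.19, and 19 CpGs. The Cpa6 region (chr1:10496370-10497467), in a carboxypeptidase gene, had 2 CpGs and widths of 916, 403 and 323 bp.

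The 4 TGF-β1-only regions held 1 to 4 CpGs each, and Control-only regions in Cpa6, Phf21a, Pde4c and Immp2l held as few. In Csmd2, a large transmembrane protein gene, the region (chr4:127898577-127899343) was 256, 663 and 672 bp wide in the 3 TGF-β1 samples, had 1 CpG and consisted to 85.6% of repeated words. In Adamts12, which encodes a secreted metalloprotease, the region (chr15:11252001-11252867, intron 20 of 23) was 369, 867 and 316 bp wide with a fold enrichment of 1.77, 2.83 and 2.43, and had 3 CpGs. The Sfi1 region (chr11:3062678-3063104) was 163, 394 and 226 bp wide with a fold enrichment of only 1.04, 1.11 and 1.13. The 0610012H03Rik region (chr2:105093034-105093322) was 270, 184 and 244 bp wide, with 4 CpGs in 289 bp and a CpG ratio of 0.28, above that of intronic sequence. Over the 24 regions called in at least 2 TGF-β1 and no Control samples the median CpG ratio was 0.058, against 0.26 over the 58 with the reverse pattern, and 9 of the 24 (37.5%) were multi-copy against 6 of the 58 (10.3%).

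A group of recurrent regions held telomere-type repeats, tandem copies of the unit AACCCT or its complement. They were singled out after their values were seen. Among the 217 intronic peaks with more than 20% of bases in tandem repeats, multi-copy peaks included, AACCCT was the leading unit in 99 (45.6%). The Control samples held 14, 19 and 23 of these and the TGF-β1 samples 21, 6 and 16, with overlapping groups. Counted over whole regions, AACCCT was the leading unit of 25, and 23 of the 25 were called in 2 or more samples, beside 236 of all 1093 intronic regions (21.6%). Regions in Pde1c, Ror2, Hsd11b1, Bbox1 and Dopey2 were called in all 6 samples. Pde1c encodes a phosphodiesterase, Ror2 a receptor of Wnt5a and Hsd11b1 an enzyme that regenerates active glucocorticoid. TGF-β1 replicate 2 had a call in only 1 of the others, Kcnh1, and none in Map2k6, Sorcs1, Greb1 and Lama1, which were called in 4 or 5 samples.

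The same unit was searched in all intronic sequence, on both strands, as perfect arrays of at least 60 bases. Of 34 AACCCT arrays 27 (79.4%) lay under an intronic peak of at least 1 sample. Of 359 arrays of AGAGGC 24 (6.69%) did, and of 13 arrays of AGCAGG 6 (46.2%). Of the simple arrays of AG 2 of 3497 (0.057%) lay under a peak, of those of AGG 2 of 490, and of those of AC 0 of 1043 and of ACAGC 0 of 35. The telomere-type arrays had the highest share of the 7 units searched. Apart from AC and AG, these units were those that led the most regions called here, with AACCCT first, so the ranking draws on the same peaks. Perfect arrays of 60 bases also leave out interrupted repeats, such as those of ACAGC in Tcte2, Smo and Mepe. By sample, 15, 19 and 24 of the AACCCT arrays lay under a peak in Control and 21, 6 and 16 in TGF-β1 samples.

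**Figure D4:**
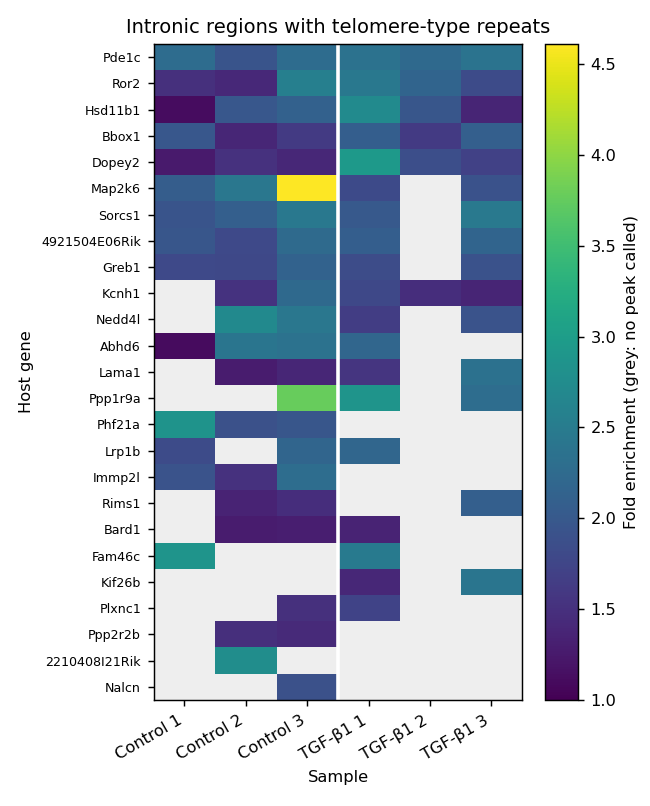
Fold enrichment (colour) of the 25 intronic regions whose leading repeat unit is AACCCT, by host gene (vertical axis) and sample (horizontal axis). Grey means that no peak was called, and the white line separates Control from TGF-β1 samples. The top 5 regions are called in all 6 samples, and TGF-β1 2 has the fewest calls, 6.

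Intronic peaks lay in 801 protein-coding genes of 21418 (3.74%). A single sample accounted for 464 of these genes, and 337 had intronic peaks in 2 or more samples. Another 52 of them had peaks in 4 or 5 samples and 45 in all 6. In 224 of the 337 genes (66.5%) intronic peaks of at least 2 samples fell in 1 region, and in 113 no region was shared between samples. The number of genes per sample was 321, 311 and 259 in Control and 264, 134 and 220 in TGF-β1 samples, a log2 ratio of -0.58 with overlapping groups (exact p = 0.2), and of -0.30 without TGF-β1 replicate 2. Genes with intronic peaks in Control samples alone numbered 369, in TGF-β1 samples alone 196 and in both groups 236.

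The host genes were long. The median length of all protein-coding genes was 15.5 kb, of genes with an intronic peak 91.1 kb, of those with peaks in 2 or more samples 122 kb and of those with peaks in all 6 samples 192 kb. An intronic peak was found in 1.01% of genes under 30 kb, 5.83% of genes of 30 to 100 kb, 13.3% of genes of 100 to 300 kb, 26.8% of genes of 300 kb to 1 Mb and 39.6% of the 48 genes over 1 Mb. Per Mb of intronic sequence the order was different. In Control samples the density was 0.53 ± 0.047 peaks per Mb in genes under 30 kb and 0.29 ± 0.038 in genes of 300 kb to 1 Mb, while genes over 1 Mb held 0.37 ± 0.13 per Mb (SD, n = 3 each). The share of genes with a peak thus went up with length through all 5 classes, and the density did not.

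The median length of the host genes in a sample was 109, 99.96 and 105 kb in Control and 129, 134 and 127 kb in TGF-β1 samples. All TGF-β1 values lay above all Control values, with a log2 difference of 0.31 and a pooled SD of 0.054 (exact p = 0.1). With peaks of a −log10 q of at least 5, the log2 difference was 0.027 and the groups overlapped (exact p = 1). In genes of 30 to 100 kb the samples held 109, 116 and 88 intronic peaks in Control and 78, 38 and 63 in TGF-β1, which did not overlap (log2 ratio -0.86, exact p = 0.1). In genes of 300 kb to 1 Mb they held 54, 69 and 58 against 72, 29 and 47, which overlapped (log2 ratio -0.38, exact p = 0.5). The log2 ratios of the other classes were -0.63 under 30 kb, without overlap (exact p = 0.1), -0.37 at 100 to 300 kb and -0.70 over 1 Mb, both with overlap (exact p = 0.5 and 0.2), so the ratio followed no order of length.

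**Figure D5:**
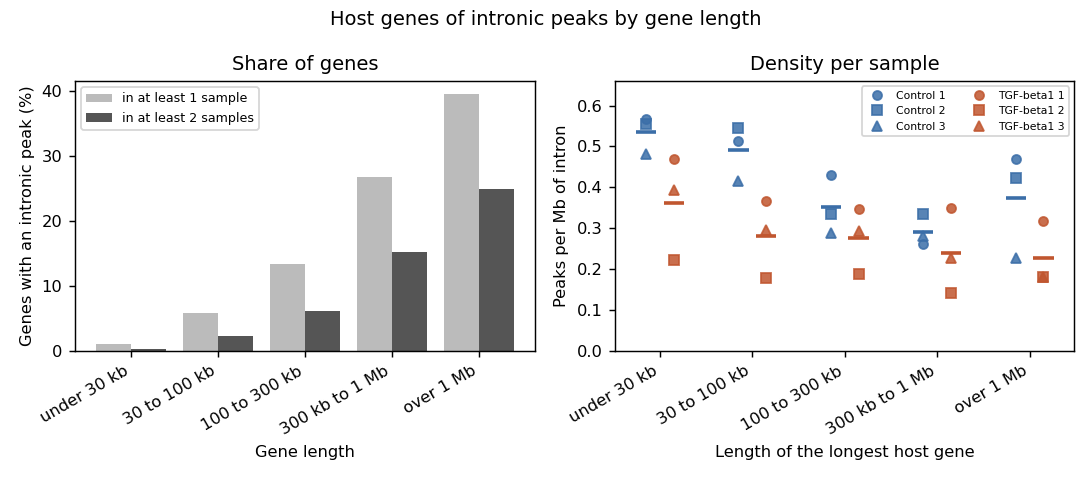
Left, share of protein-coding genes (percent) with an intronic peak in at least 1 or at least 2 samples, by gene length. Right, intronic peaks per Mb of intronic sequence for each sample by length of the longest host gene, with points for samples and short lines for means of 3. The share of genes goes from 1.01% under 30 kb to 39.6% over 1 Mb, while the Control density is highest in genes under 30 kb (0.53 per Mb).

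The gene with the most intronic peaks was Gm20388 on chromosome 8, with 15, 15 and 6 in Control and 15, 6 and 4 in TGF-β1 samples. Its single coding transcript spans 4.43 Mb and encloses 72 other coding genes, and 8 of its 61 peaks also lay inside another gene. Chromosome 8 held 209 intronic peaks (12.7%), the most of any autosome. Fgfr2 is a similar case, annotated over 3.01 Mb with 31 other coding genes inside, and none of its 10 peaks, the CpG-rich ones included, lay within its second longest transcript of 104 kb. Sfi1, a centrosome protein gene of 61.6 kb, held 2, 5 and 1 peaks in Control and 4, 5 and 5 in TGF-β1 samples. Dlgap2, a postsynaptic scaffold gene of 752 kb, held 3, 2 and 2 against 3, 2 and 1. Most peaks of 1700112E06Rik came from Control replicate 1, with 6, 2 and 1 against 1, 1 and 1. Ndst3, an enzyme of heparan sulfate synthesis, held 2, 2 and 1 against 2, 2 and 1. Myo3a, Cldn14, 2210408I21Rik and Ror2, the rest of the top 10, had 7 to 10 peaks each. Lrp1b, of 2058 kb, was the third longest gene with intronic peaks in 2 or more samples, and Gm11541 (10.0 kb), Foxa3 (10.3 kb) and 1700018B08Rik (11.2 kb) were the shortest.

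Genes with intronic peaks in all 3 Control and no TGF-β1 samples numbered 14 of 801 (1.75%), and 2 genes (0.25%) had the reverse pattern. For peaks at any position of the gene body these shares were 5.77% and 0.0953% of 2098 genes. Besides the genes of the Control-only regions above, the 14 included Wnt3, a Wnt ligand, with 2, 1 and 1 peaks. Rbfox3, a neuronal splicing factor, had 2, 1 and 1 peaks at 4 different places, and Nr3c2, the mineralocorticoid receptor, had 1 peak per sample at 3 different places. Slco2a1, a prostaglandin transporter, had 1 region called in all 3 Control samples. In the reverse direction, Adamts12 had a single shared region and Pkd2l1, a cation channel of the polycystin family, had 1 peak per TGF-β1 sample at 3 different places.

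Gene length differed between the gene lists that were counted, and its part in their counts was not tested. Of 93 annotated genes for neuronal adhesion and synapse 27 (29%) had an intronic peak and 17 (18.3%) in 2 or more samples, beside 3.74% and 1.57% of all genes. Their median length was 668 kb. The 17 included the teneurins Odz2, Odz3 and Odz4, the calcium channel genes Cacna1a, Cacna1c and Cacna2d3, and Nkain3, whose region was called in all 6 samples. Per sample the list held 13, 16 and 13 genes in Control and 13, 5 and 11 in TGF-β1 samples, which overlapped. The other members in 2 or more samples were Csmd2, Lrp1b, Erbb4, Kcnma1, Rbfox3, Ctnna3, Ctnnd2, Sorcs1, Accn1 and Rims1.

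Of 91 genes of extracellular matrix and remodelling 13 (14.3%) had an intronic peak and 8 in 2 or more samples, with a median length of 114 kb. Lama1, a laminin chain, had 0, 1 and 1 peaks in Control and 1, 0 and 1 in TGF-β1 samples, all in 1 telomere-type region. Hmcn1, a hemicentin of basement membranes, had 0, 0 and 2 against 3, 1 and 0, and Reln, which encodes reelin, had 0, 1 and 0 against 1, 0 and 1. Col13a1 and Emid2 had peaks in 2 Control samples each, Lama3 and Egflam in 1 sample of each group, and Adamts12 is described above. Per sample the list held 6, 4 and 3 genes in Control and 6, 4 and 3 in TGF-β1 samples.

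Of 94 developmental transcription factors 11 (11.7%) had an intronic peak, and Control samples had 3, 3 and 6 of them against 2, 0 and 1 in TGF-β1 samples, with separate groups. All genes with an intronic peak also had a lower mean in TGF-β1 samples, 206 against 297, and the list was not tested against them. Those in 2 or more samples were Pax5 and Lmx1a, in 2 Control samples each, and Prdm6 and Cbfa2t3, in 1 sample of each group. Of 88 genes of TGF-β, BMP, Wnt and FGF signalling 5 (5.68%) had an intronic peak, and 4 had them in 2 or more samples, Wnt3, Ror2, Fgfr2 and Wnt5b. Of 27 polycomb complex genes only Jarid2 had an intronic peak, 1 in each sample. None of 12 mesangial cell markers and none of 10 markers of other glomerular cells had any, and at the share of all genes lists this short could well hold none.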

How the data were processed

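H3K27me3 peak lists of 3 Control and 3 TGF-β1 samples were grouped by the treatment label. Per the labels and the study's methods, the authors aligned reads to mm9 with BWA and kept uniquely mapped reads, and per the file headers they called broad peaks for each library with MACS 2.1.0.20150731 (q of 0.01 and 0.1, no control library). The deposited pileup is a coverage signal, the deposited fold enrichment a ratio to local background within that library, and the deposited p and q columns −log10 values. The lists were used without tag numbers for single peaks, and no counting interval is given.

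Peaks were placed with GENCODE M1 and its assembly, NCBIM37 (mm9). The assembly's file marks no repeats, so repeats were measured as 31-base words found more than 1 time in it and as perfect tandem runs of at least 20 bases. Sample values were compared by 2-sided exact permutation tests of 3 against 3 (scipy 1.17.1, Python 3.11.15), and regions called in all 6 samples with limma 3.58.1 in R 4.3.3 with Benjamini-Hochberg adjustment. The functions were tested on simulated data. Nothing in the labels says that replicates came from separate cultures, so p-values measure only the spread between these samples.

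The members and gene lists were chosen with earlier results of these data known. Named genes were the first 10 by number of samples, then peaks, then base pairs, those called throughout 1 group and never in the other (at most 10 per direction), the 3 longest and 3 shortest in 2 or more samples, and list members in 2 or more samples. Named regions were the 5 widest called in all 6 samples, in Control only and in TGF-β1 only. Other names were chosen after seeing values. A gene that meets the rule is not reported here. Alternatives were stricter q, other distances, gene starts or exons, joined peaks, removal of chromosomes, repeats or samples, equal peak numbers, peak midpoints, scaled pileup and a replicate block.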

Additional observations from a re-analysis of the deposited data

How the results depend on the processing

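Of 309 alternative values for 19 results 297 kept their direction or, for the limma count, stayed at 0. Under every alternative run 15 results did so. Some of these values could not have differed. They are the sample values of the replicate block and, with at most 50% repeated words, the single-copy, tandem and CpG-rich peak numbers. None of the results compared by exact tests could pass 0.05, because those tests allow no p below 0.1, so their p-values say nothing about stability. Median width reversed at a −log10 q of at least 5 (log2 0.25) and at least 1 (0.059). Intronic against intergenic peaks reversed at 5 (-0.16). Median GC content reversed at 5 (1.27 percentage points), at 1 (0.42) and without chromosome 8 (0.0059), and leaving out samples gave -0.48 to 0.26. The multi-copy peak number reversed at 1 (log2 0.061) and without chromosome 8 (0.0079), and leaving out samples gave -0.23 to 0.12. The causes were not tested. At 5, the intronic share differed by 1.75 points with overlapping groups, against 4.93 for all peaks. No value could be given for multi-copy, tandem and CpG-rich peaks at 5, or for CpG-rich peaks at 1 or with all annotated exons excluded, because samples were at 0. Thresholds of 1, the removal of chromosome 8 or of genes over 2.5 Mb, and the division by kind of sequence were chosen after seeing the data. The limma fit called 0 of 40 intronic regions under each alternative (2 to 7 at an unadjusted p under 0.05). With same-numbered samples as pairs (the replicate block), the log2 difference in intronic peak number was -0.58. Its exact sign-flip p was 0.25, the smallest that 3 pairs allow. The mean of the paired differences equals the difference of group means, so this pairing could not change the direction of a sample value. Deviations of same-numbered samples correlated at -0.088, -0.040 and -0.15 over 240 regions, and those of differently numbered samples at -0.045 to 0.13. These values cannot show whether same-numbered samples were handled together, and the labels give only a shared number. Leaving out samples gave -0.81 to -0.30 for the peak number.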
